A study of Homo sapiens with 6 samples.

Results

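The genes described here are 31 genes of cholesterol and fatty acid synthesis, taken from a list of genes under the control of SREBP transcription factors and matched by symbol to the Ensembl identifiers of the count files. All 31 were among the 22091 identifiers, and all 31 passed the filter on low counts that left 14176 genes for testing. They were grouped by role into 8 genes that lead from acetyl-CoA through mevalonate to squalene, 10 that lead from squalene to cholesterol, 6 that regulate SREBP or move sterol within the cell, and 7 of fatty acid synthesis. RNA was sequenced from MHCC97L, MHCC97H and HCCLM3, which are 3 established lines of human hepatocellular carcinoma cells. The control group held 1 library of each line without added ligand, and the TGF-β1 group held 1 library of each line after 4 h with TGF-β1 at 2.5 ng/mL. TGF-β1 is a secreted cytokine that signals through SMAD proteins. MHCC97L and MHCC97H were derived from the same parental tumour line and are known for lower and higher metastatic capacity, and HCCLM3 was derived from a metastasis of MHCC97H in mice. Whether the libraries are separate cultures is not stated in the labels, so p-values here measure the spread between these libraries only.

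Cholesterol and fatty acids are both built from cytosolic acetyl-CoA. SREBP proteins are made as membrane-bound precursors in the endoplasmic reticulum. When sterol is low, the escort protein SCAP carries them to the Golgi, where proteases free the part that enters the nucleus and activates the genes of both pathways. When sterol is high, INSIG proteins hold SCAP back. The liver is a main site of both syntheses, and SREBF2 is known chiefly for the cholesterol genes and SREBF1 for the fatty acid genes.

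Library totals ran from 18485041 to 23242862 counts, so 3 counts, the limit that a count of 0 allows, correspond to 0.129 to 0.162 CPM (counts scaled to a common library size). SMAD7 and PMEPA1, inhibitors of SMAD signalling, and JUNB, a known TGF-β1 target, were higher after TGF-β1 in every line. Their log2 changes were 1.19 (SE 0.081), 3.30 (SE 0.109) and 2.33 (SE 0.099), each with n = 3 lines. Of 9 hepatocyte and liver tumour markers, 8 reached 1 CPM in at least 1 library, and their summed level was 5967 to 7760 CPM in the controls and 6629 to 9388 CPM after TGF-β1. The hepatocyte-defining gene TTR, which encodes transthyretin, was under 1 CPM in every library. Markers of stellate cells and fibroblasts summed to 10.1 to 33.9 CPM in the controls and 11.6 to 33.0 CPM after TGF-β1, with PDGFRB, ACTA2 and THY1 under 1 CPM throughout. Of this list, LUM was at 9.27 to 17.7 CPM over the libraries, highest in HCCLM3. COL3A1 was at 14.4 CPM in the HCCLM3 control and 11.7 CPM in its TGF-β1 library, and under 1 CPM in both MHCC97 lines. Their part in the differences of HCCLM3 from the other lines was not tested. The 4 adipocyte markers were all under 1 CPM and summed to at most 0.774 CPM.

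The 31 genes together took 0.318% of the counts in the control library of MHCC97L, 0.401% in that of MHCC97H and 0.337% in that of HCCLM3. After TGF-β1 their shares were 0.318%, 0.404% and 0.302%. The sum was thus highest in MHCC97H in both conditions. Levels of different genes were compared per kilobase of annotated exon. On that scale the control means were highest for FASN, the fatty acid synthase, at 78.3 CPM per kilobase. ACLY, which cleaves citrate to cytosolic acetyl-CoA, followed at 65.4 CPM per kilobase. FDPS, the farnesyl diphosphate synthase, SCD, the stearoyl-CoA desaturase, EBP, a sterol isomerase, and PMVK, the phosphomevalonate kinase, stood at 54.8, 54.7, 50.5 and 45.3 CPM per kilobase. The lowest were the sterol reductase TM7SF2 at 1.60, the sterol ketone reductase HSD17B7 at 0.946 and the cholesterol carrier STARD4 at 0.821 CPM per kilobase. The pathways therefore held genes at very different levels, with neighbouring steps such as EBP and HSD17B7 far apart.

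**Figure D1:**
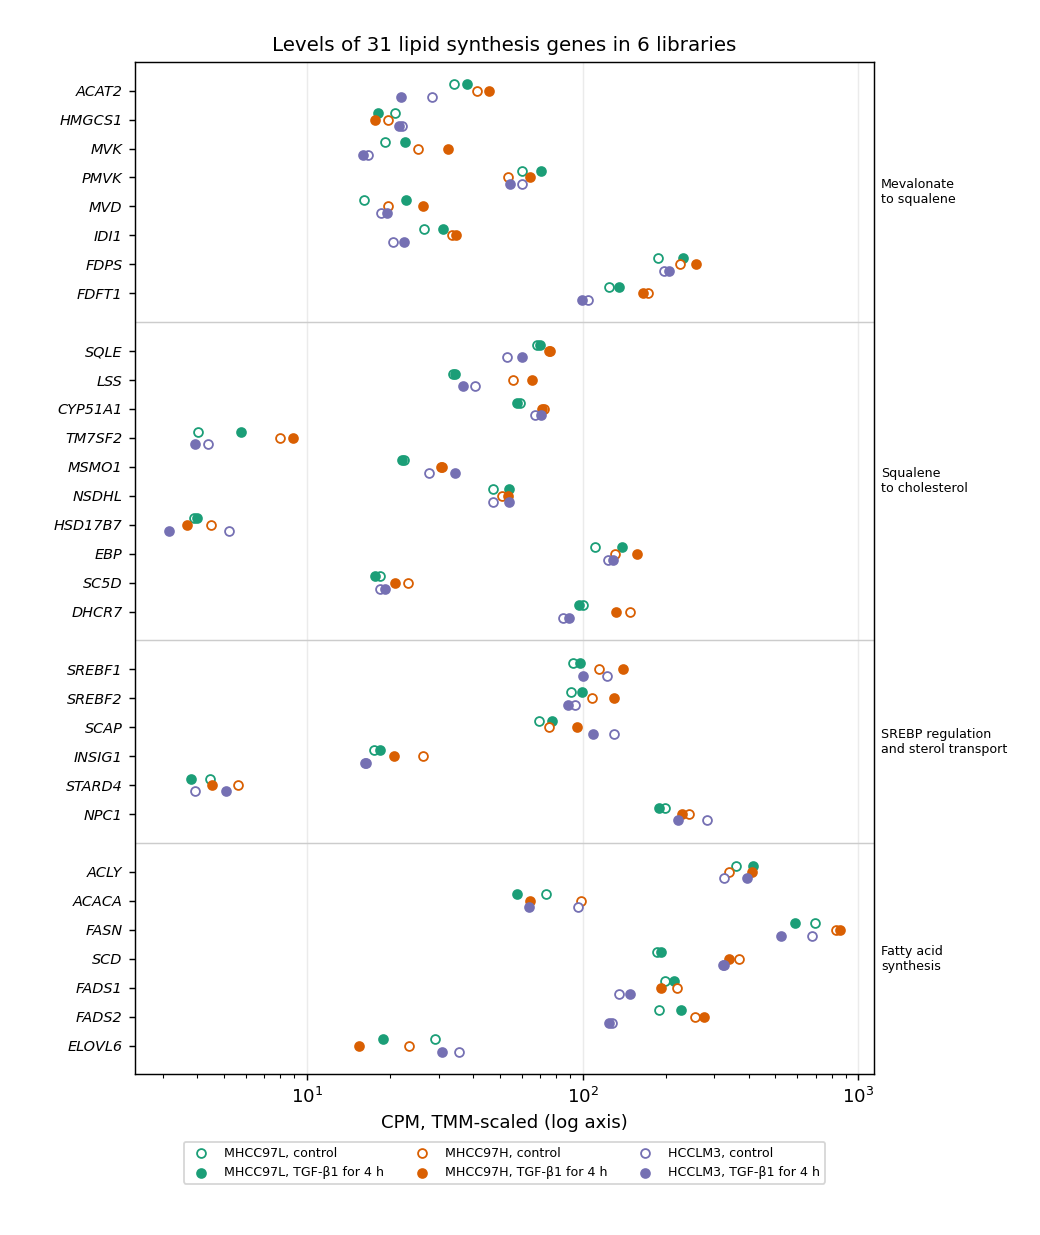
Level of each of the 31 genes in the 6 libraries, in CPM on a log axis, with genes grouped by role, colours for the 3 cell lines, open points for controls and filled points for TGF-β1. For ACACA every filled point lies left of every open one, and for FADS2 both HCCLM3 points lie left of the other lines. The axis is not per length, so it serves to compare libraries and not genes.

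The comparison of TGF-β1 with control asked how these genes changed within 4 h of ligand across the lines. ACLY rose, while ACACA, the acetyl-CoA carboxylase that makes malonyl-CoA, and ELOVL6, which elongates long-chain fatty acids, fell. All 3 belong to fatty acid synthesis, and no gene of the cholesterol pathway or of SREBP regulation passed the test. The test was edgeR's quasi-likelihood F test with cell line and treatment as terms and Benjamini-Hochberg adjustment over all genes tested. By that test 1 member rose and 2 fell, which is 9.68% of the 31, against 14.4% of all 14176 genes, of which 7.79% rose and 6.65% fell. At an unadjusted p under 0.05, 4 members were higher and 3 lower, against 2208 and 2117 of the 14176 genes. The median log2 change of the members was 0.03 (-0.02 when libraries were scaled to their totals), and their median absolute change was 0.11 against 0.16 for all genes tested. Changes of the members ran from -0.52 to 0.33 on the log2 scale. In bulk RNA, fewer cells and less RNA per cell cannot be told apart.

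Values by library are given in the order MHCC97L, MHCC97H, HCCLM3. ACACA stood at 73.7, 98.3 and 96.4 CPM in the controls and at 57.6, 64.3 and 63.8 CPM after TGF-β1. Every TGF-β1 library was below every control library. Its mean went from 89.5 ± 13.7 (SD, n = 3) to 61.9 ± 3.72 CPM, a log2 change of -0.52 (SE 0.076) with an edgeR adjusted p of 0.00351. The gene (ENSG00000278540.4, chromosome 17, 37084988 to 37406818, hg38, minus strand) had counts that were not whole, and C17orf78, which is also in the files, overlaps it on the other strand.

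ELOVL6 stood at 29.1, 23.5 and 35.7 CPM in the controls and at 18.8, 15.5 and 30.8 CPM after TGF-β1. It was lower with ligand in each line, although the treated HCCLM3 library lay above the controls of both MHCC97 lines. The log2 change was -0.48 (SE 0.102, n = 3 lines) with an edgeR adjusted p of 0.0182. By line the log2 changes were -0.63, -0.60 and -0.21, so HCCLM3 had the smallest.

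ACLY stood at 358, 339 and 326 CPM in the controls and 413, 413 and 396 CPM after TGF-β1. The conditions did not overlap, and the log2 changes by line were 0.20, 0.28 and 0.28. Its mean went from 341 ± 16.5 (SD, n = 3) to 407 ± 9.87 CPM, a log2 change of 0.26 (SE 0.062) and 1.19-fold, with an edgeR adjusted p of 0.0277. Thus the gene of the enzyme that supplies acetyl-CoA rose while that of the enzyme that carboxylates it fell.

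The calls of ACLY and ELOVL6 were lost when either MHCC97 line was left out and held without HCCLM3. Without MHCC97L their log2 changes were 0.28 and -0.40, with edgeR adjusted p of 0.267 and 0.186. Without MHCC97H the changes were 0.24 and -0.41, with edgeR adjusted p of 0.109 and 0.0693. These 2 fits, with 1 residual degree of freedom, called 4.29% and 6.86% of all genes, against 14.4% with all lines. ACACA passed whichever line was left out. With libraries scaled to their totals ACLY had an adjusted p of 0.0633.

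The other fatty acid genes did not pass. FASN stood at 695, 827 and 678 CPM in the controls and 587, 857 and 525 CPM after TGF-β1, so it was lower with ligand in MHCC97L and HCCLM3 and higher in MHCC97H. Its log2 change was -0.19 (SE 0.086, edgeR adjusted p = 0.178). SCD, which makes monounsaturated fatty acids, had a log2 change of -0.03. FADS1 and FADS2, the desaturases of polyunsaturated fatty acids, had values of 0.02 and 0.11, and since they overlap on opposite strands their reads may be shared. Among the 31 genes, ACACA, ACLY and NSDHL, a sterol dehydrogenase, had conditions that did not overlap, against 18.0% of all genes tested.

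**Figure D2:**
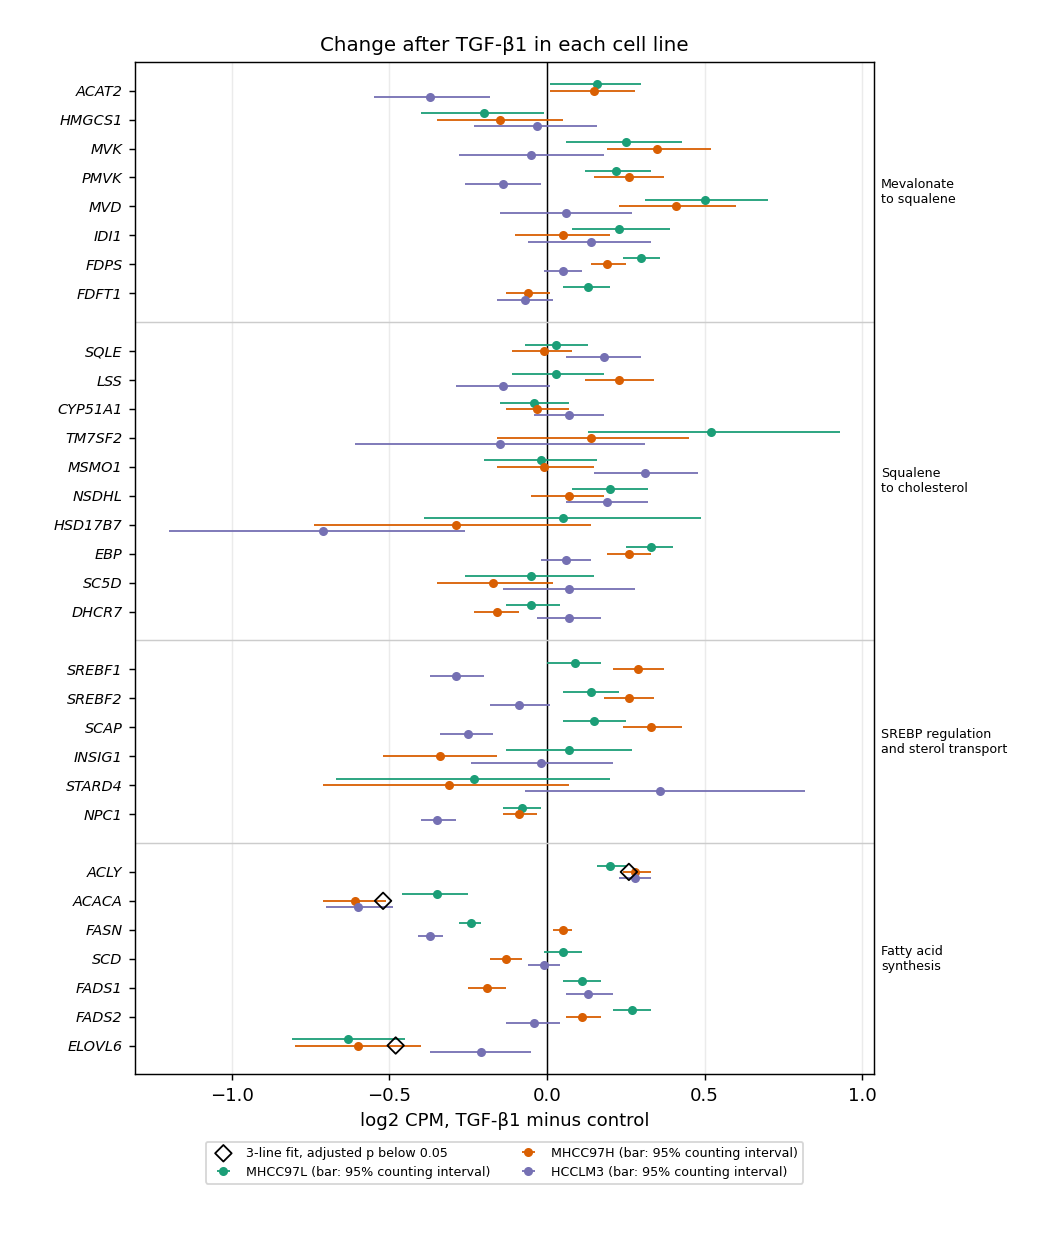
Log2 change after TGF-β1 of each gene in MHCC97L, MHCC97H and HCCLM3, with 95% counting intervals, genes grouped by role. ACACA and ELOVL6 lie below 0 and ACLY above 0 in all 3 lines, while most other genes have lines on both sides of 0.

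Of the 8 genes of the mevalonate steps, none passed, and their median log2 change was 0.13. MVD, the mevalonate diphosphate decarboxylase, had the largest value of any member that was higher. It stood at 16.1, 19.7 and 18.6 CPM in the controls and 22.9, 26.3 and 19.4 CPM after TGF-β1, with a log2 change of 0.33 (SE 0.105) and an edgeR adjusted p of 0.0671. The difference lay in the MHCC97 lines, at 0.50 and 0.41, while HCCLM3 gave 0.06 with a counting interval from -0.15 to 0.27. HMGCS1, which makes HMG-CoA, had the lowest value of the group. It stood at 20.8, 19.6 and 22.1 CPM in the controls and 18.1, 17.6 and 21.6 CPM with ligand, lower in each line but not past the threshold (log2 -0.13, edgeR adjusted p = 0.349). The other 6 genes (ACAT2, MVK, PMVK, IDI1, FDPS and FDFT1) had log2 values from -0.01 to 0.19 and edgeR adjusted p from 0.122 to 0.99. Of these, FDPS and IDI1 were higher in all 3 lines.

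None of the 10 genes from squalene to cholesterol passed, and their median log2 change was 0.05. EBP was at 111, 131 and 123 CPM in the controls and 139, 157 and 128 CPM after TGF-β1. It was higher with ligand in each line, with a log2 change of 0.22 (SE 0.073) and an edgeR adjusted p of 0.0808. HSD17B7 had the lowest value, with 3.87, 4.48 and 5.21 CPM in the controls and 4.00, 3.65 and 3.15 CPM after TGF-β1 (log2 -0.31, SE 0.179, edgeR adjusted p = 0.275). Its low counts made it one of the least precise members. NSDHL, at 47.1, 51.0 and 47.2 CPM in the controls and 54.1, 53.4 and 53.9 CPM after TGF-β1, was higher in every line but did not pass (log2 0.15, edgeR adjusted p = 0.188). The other 7 (SQLE, LSS, CYP51A1, TM7SF2, MSMO1, SC5D and DHCR7) had log2 values from -0.05 to 0.19.

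The regulators and sterol carriers did not pass either, with 0 of 6 called and a median of -0.02. SREBF1 stood at 91.8, 115 and 122 CPM in the controls and 97.5, 140.5 and 100.2 CPM after TGF-β1. SREBF2 stood at 90.5, 108 and 93.7 CPM and 99.7, 129 and 88.3 CPM. SCAP stood at 69.6, 75.5 and 130.1 CPM and 77.2, 95.1 and 109 CPM. All 3 were higher with ligand in both MHCC97 lines and lower in HCCLM3, and their averages over lines were 0.03, 0.11 and 0.08 on the log2 scale. NPC1, which exports cholesterol from lysosomes, had the largest value of the group. It stood at 199, 243 and 282 CPM in the controls and 189, 229 and 222 CPM after TGF-β1, lower in each line, with a log2 change of -0.17 (SE 0.074, edgeR adjusted p = 0.161). INSIG1 and STARD4 had log2 values of -0.10 and -0.07.

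Within single lines each change rests on 1 library per condition, so it carries a 95% counting interval and no test. On the log2 scale the medians of the members were 0.09, 0.05 and -0.03, against 0.01, 0.00 and -0.01 for all genes tested. Scaling to library totals lowered values by amounts near the size of these medians. For SCD they went from 0.05, -0.13 and -0.01 to 0.00, -0.17 and -0.08, with the order of the lines unchanged. Values this near 0 thus depend on the scaling. The mevalonate genes had medians of 0.23, 0.17 and -0.04. Among members at 5 CPM or more in either library, ELOVL6 alone of 29 was at least 1.5-fold lower in MHCC97L, where 2.17% of all such genes were. In MHCC97H, ACACA and ELOVL6 of 30 passed this fold (background 3.94%), and in HCCLM3, ACACA and HSD17B7 of 30 (background 2.23%). HSD17B7 reached 5 CPM in HCCLM3 only in the control library, at 5.21 CPM against 3.15 CPM with ligand. Its entry there thus depended on the high control, and in the MHCC97 lines it was under 5 CPM in both conditions. No member was 1.5-fold higher in any line, against 3.58%, 5.16% and 3.50% of all such genes. Over the 3 lines, 6 members were higher with ligand in every line (background 24.8%), 4 were lower in every line (background 25.6%) and 21 were mixed.

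The response of HCCLM3 was then set against the response shared by the MHCC97 lines, in the same edgeR model with 1 residual degree of freedom, a comparison chosen after the values were seen. HCCLM3 gave 1 pair of libraries, so the residual spread came from the MHCC97 lines alone, and HCCLM3 is assumed to vary like them. SCAP was the only member with an adjusted p below 0.05, with a response of 0.24 in the MHCC97 lines and -0.25 in HCCLM3, a difference of -0.50 (SE 0.126, edgeR adjusted p = 0.0439). This is 1 of 31 members, against 1.59% of all genes tested, and 10 members (32.3%) had an unadjusted p under 0.05, against 14.2% of all genes. SREBF1, with responses of 0.19 and -0.29, had an edgeR adjusted p of 0.0568, and ACAT2, a thiolase, with 0.15 and -0.37, had 0.102. The call of SCAP was lost when libraries were scaled by DESeq2 size factors (adjusted p = 0.104), by upper quartiles (0.0535) or to totals (0.0773), and with no count filter (0.273). Without HCCLM3, the comparison of TGF-β1 with control called 11 members (35.5%) in place of 3, while the calls over all genes went to 27.7% from 14.4%. The 9 that rose were MVK, PMVK, MVD, FDPS, EBP, SREBF2, SCAP, FADS2 and ACLY, and the 2 that fell were ACACA and ELOVL6.

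The 250 bases before the annotated start of the 3 genes that changed are shown with the matches to 4 motifs in capitals, read 5′ to 3′ on the gene's strand. The motifs were CCAAT, bound by NF-Y, GGGCGG, the GC box bound by SP1, CACGTG, an E-box, and TCACNCCAC, a form of the sterol regulatory element bound by SREBP. Both strands were searched, so a match may read as its reverse complement (ATTGG or CCGCCC). The sequences are from RefSeq on GRCh38.p14, at chr17:41919023-41919272, chr17:37406837-37407086 and chr4:110198616-110198865, all on the minus strand.
ACLY: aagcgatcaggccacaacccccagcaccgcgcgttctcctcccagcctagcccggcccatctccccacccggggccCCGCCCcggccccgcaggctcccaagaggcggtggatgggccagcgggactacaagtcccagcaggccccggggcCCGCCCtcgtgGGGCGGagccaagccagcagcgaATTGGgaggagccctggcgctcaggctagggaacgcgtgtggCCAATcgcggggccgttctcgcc
ACACA: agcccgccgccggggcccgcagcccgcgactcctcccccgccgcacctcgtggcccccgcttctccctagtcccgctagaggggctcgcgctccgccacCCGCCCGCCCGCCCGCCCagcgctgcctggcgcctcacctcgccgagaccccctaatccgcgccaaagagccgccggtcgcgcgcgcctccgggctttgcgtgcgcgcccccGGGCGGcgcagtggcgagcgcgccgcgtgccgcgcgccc
ELOVL6: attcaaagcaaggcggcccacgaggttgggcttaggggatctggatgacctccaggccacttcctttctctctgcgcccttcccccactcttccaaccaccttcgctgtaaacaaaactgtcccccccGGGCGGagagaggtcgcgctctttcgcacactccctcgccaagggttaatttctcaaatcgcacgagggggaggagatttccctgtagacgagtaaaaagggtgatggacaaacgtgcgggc
ACLY held 2 CCAAT boxes and 3 GC boxes, all within a GENCODE 29 gene model of ACLY but in no exon. ACACA held 5 GC boxes, of which 4 overlap in a row, and ELOVL6 held 1 GC box in a window that lies in its gene model, with 85 bases in an exon. Other windows of ACACA, not shown, held 1 CCAAT box with 6 GC boxes, and 2 CCAAT boxes with 0 GC boxes. None of the 3 held a match to the sterol element or the E-box in these windows, which says only that those letters are not there.

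The comparison between lines asked how the genes differed between the 3 lines. Metastatic capacity cannot be told apart here from any other property of a line. Each line had 2 libraries, 1 per condition, and the 3 comparisons share libraries, so their values are given side by side. MHCC97H had the highest level of the 3 lines in both conditions for 19 of 31 members, against 14.5% of all genes tested. These were ACAT2, MVK, MVD, IDI1, FDPS, FDFT1, SQLE, LSS, CYP51A1, TM7SF2, EBP, SC5D, DHCR7, SREBF2, INSIG1, ACACA, FASN, SCD and FADS2. MHCC97H was lowest in both conditions for HMGCS1 and ELOVL6 (background 13.5%). HCCLM3 was highest for HMGCS1, SCAP and ELOVL6 and lowest for 11 members (background 27.2% and 27.0%). MHCC97L was highest for PMVK and ACLY and lowest for 8 members (background 17.8% and 17.5%).

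HCCLM3 against MHCC97H gave the most calls. By edgeR's quasi-likelihood test 13 members were lower in HCCLM3, against 13.9% of all genes tested, and 2 were higher, against 13.3%. The lower members made up 41.9% of the 31, and the median log2 difference of the members was -0.23 against 0.00 for all genes. They came from every role, with 4 of 8 mevalonate genes, 4 of 10 from squalene to cholesterol, 2 of 6 regulators and carriers, and 3 of 7 fatty acid genes. In 19 members both HCCLM3 libraries were below both MHCC97H libraries, and in 3 they were above (background 26.4% and 25.8%).

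FADS2 had the largest difference. It stood at 189, 255 and 128 CPM in the controls, in the same order of lines, and at 227, 276 and 124 CPM after TGF-β1. Both HCCLM3 libraries were below all others. The log2 difference between HCCLM3 and MHCC97H was -1.07 (SE 0.093, edgeR adjusted p = 6.74e-05). Its overlapping neighbour FADS1 stood at 198, 219 and 135 CPM in the controls and 214, 193 and 149 CPM with ligand, and was also lower in HCCLM3 (log2 -0.54, edgeR adjusted p = 0.00348). FADS2 and FADS1 make up the desaturase pair that opens the path to arachidonic acid. The counts of both were not whole, and FEN1, which is also in the files, overlaps FADS2 on the same strand.

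In the mevalonate steps MVK, the mevalonate kinase, stood at 19.1, 25.4 and 16.6 CPM in the controls and 22.7, 32.4 and 16.0 CPM after TGF-β1. The HCCLM3 libraries were the lowest in each condition. Its log2 difference between HCCLM3 and MHCC97H was -0.82 (SE 0.123, edgeR adjusted p = 0.00136). ACAT2, FDFT1, which joins farnesyl units into squalene, and IDI1, an isomerase of isopentenyl diphosphate, had differences of -0.79, -0.73 and -0.67 on the same scale, with edgeR adjusted p of 0.00276, 0.000355 and 0.00137. MVK overlaps MMAB on the other strand, and its counts were not whole.

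From squalene on, TM7SF2 stood at 4.00, 8.01 and 4.36 CPM in the controls and 5.78, 8.85 and 3.92 CPM after TGF-β1. MHCC97H was highest in each condition. Its log2 difference between HCCLM3 and MHCC97H was -1.03 (SE 0.190, edgeR adjusted p = 0.00401), at a low level and with VPS51 overlapping on the same strand. DHCR7, which makes cholesterol from its last precursor, stood at 99.9, 148 and 84.6 CPM and 96.6, 132 and 88.8 CPM, with a difference of -0.69 (edgeR adjusted p = 0.000511). LSS, the lanosterol synthase, stood at 33.7, 55.8 and 40.6 CPM and 34.5, 65.2 and 36.8 CPM, with a difference of -0.64 (edgeR adjusted p = 0.00219). SQLE, the squalene epoxidase, had a difference of -0.43 (edgeR adjusted p = 0.00692). For DHCR7 and LSS both MHCC97H libraries were above all 4 libraries of the other lines.

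Among regulators, INSIG1 and SREBF2 were lower in HCCLM3 than in MHCC97H, with log2 differences of -0.52 and -0.38 (edgeR adjusted p = 0.0159 and 0.0203), and SREBF2 did not pass without MHCC97L (0.0571). SCAP was higher in HCCLM3, by 0.49 (SE 0.134, edgeR adjusted p = 0.0297). Its control level in HCCLM3, 130.1 CPM, was the highest of the 6 libraries. Of the fatty acid genes, FASN had a difference of -0.50 (edgeR adjusted p = 0.00762). ELOVL6 went the other way from the rest of its role, with HCCLM3 higher by 0.80 (SE 0.126, edgeR adjusted p = 0.00176).

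**Figure D3:**
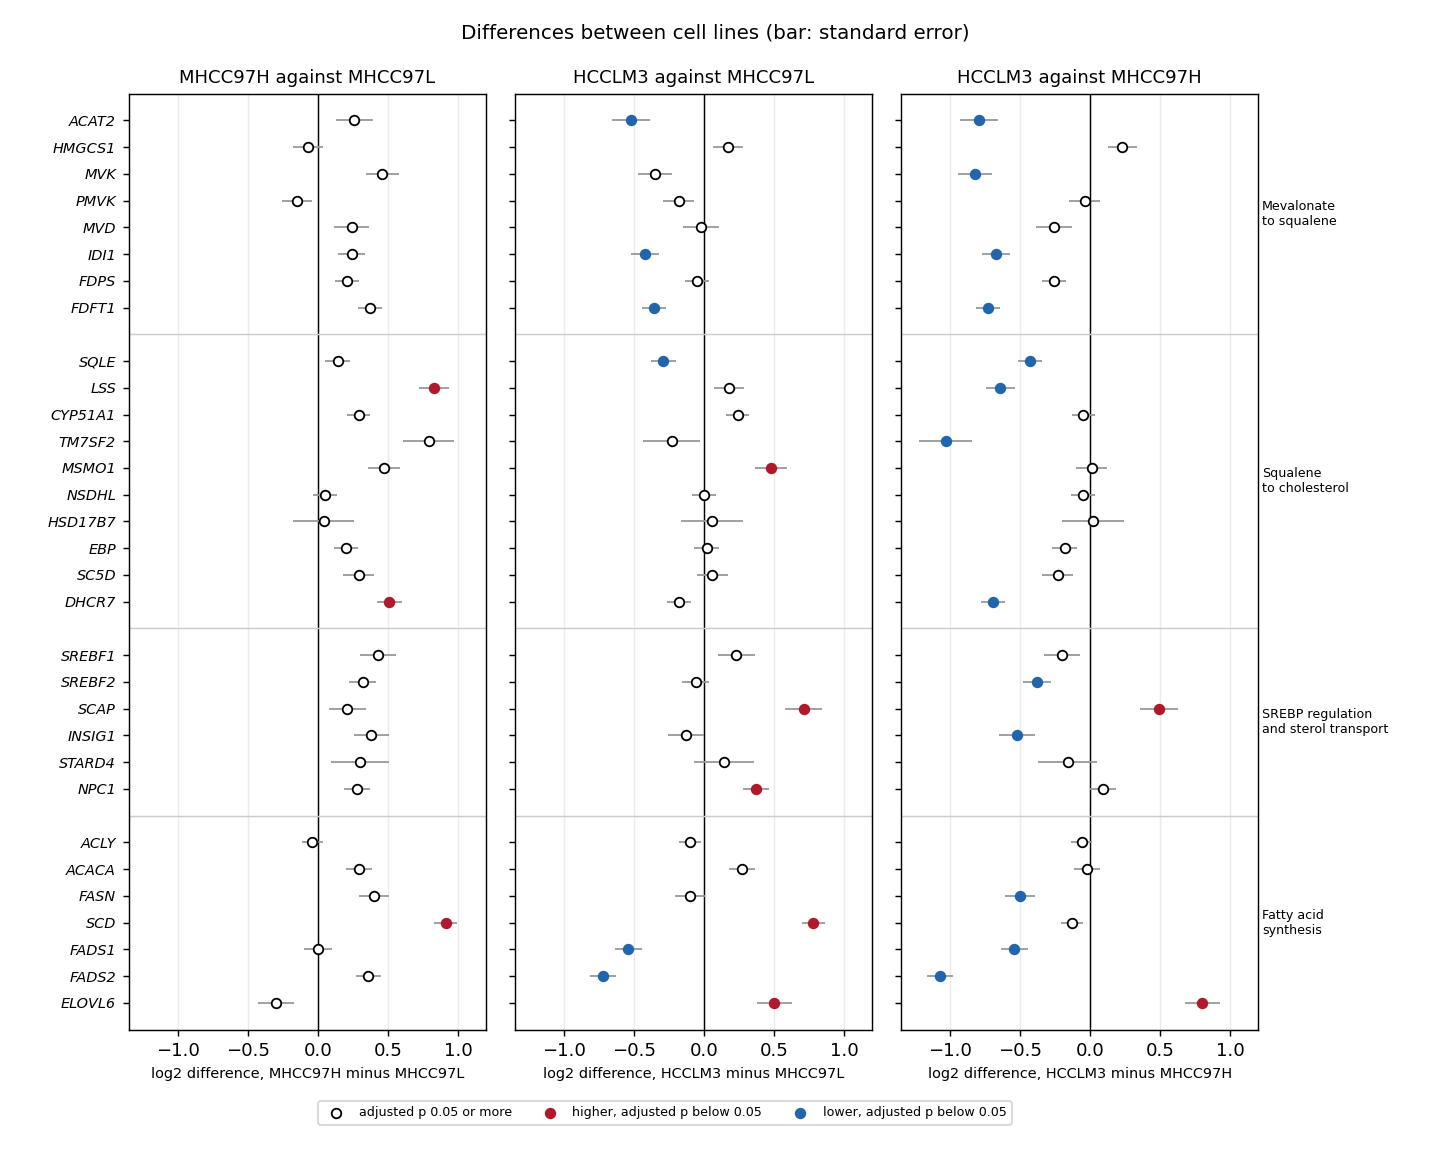
Log2 difference of each gene in the 3 comparisons between lines, with standard errors, genes grouped by role and filled points for adjusted p below 0.05. Most points for HCCLM3 against MHCC97H lie below 0, led by FADS2 at -1.07 and TM7SF2 at -1.03, while ELOVL6 stands highest at 0.80.

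MHCC97H against MHCC97L gave 3 higher members, LSS, DHCR7 and SCD, and 0 lower. This is 9.68% of the members, against 1.37% of all genes higher and 1.09% lower. SCD stood at 186, 370 and 325 CPM in the controls and at 192, 338 and 323 CPM after TGF-β1. MHCC97L was thus the line that stood apart, at the lowest level in both conditions. SCD was 1.87-fold higher in MHCC97H (log2 0.91, SE 0.081, edgeR adjusted p = 0.00104), and LSS and DHCR7 were higher by 0.83 (SE 0.106) and 0.51 (SE 0.086). The median log2 difference of the members was 0.29 against 0.00 for all genes. Of the 31, 26 were above 0 and 5 below (16.1%, against 49.7% of all genes). At an unadjusted p under 0.05 there were 19, for which no share of all genes is given. In 19 members both MHCC97H libraries were above both MHCC97L libraries, and in 0 they were below (background 16.5% and 16.4%). The count of calls depended on the fit, with 6 in DESeq2 and 16 when HCCLM3 was left out of the estimate of the spread, all of them higher in MHCC97H. Calls over all genes in those fits are not given, so these counts cannot be set against a background.

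HCCLM3 against MHCC97L gave calls in both directions, with 5 members higher and 6 lower, or 16.1% and 19.4%, against 15.0% and 14.8% of all genes and 29.8% in either direction. In 9 members both HCCLM3 libraries were above both MHCC97L libraries, and in 10 they were below (background 27.9% and 29.1%). The higher ones were SCD (0.78), SCAP (0.71), ELOVL6 (0.50), MSMO1 (0.48), a sterol demethylase, and NPC1 (0.37), as log2 differences. The lower ones were FADS2 (-0.72), FADS1 (-0.54), ACAT2 (-0.52), IDI1 (-0.42), FDFT1 (-0.36) and SQLE (-0.29). The mevalonate genes had 3 lower and 0 higher of 8. The call of SQLE was lost with no count filter (edgeR adjusted p = 0.0538) and in DESeq2 (adjusted p = 0.0883).

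**Figure D4:**
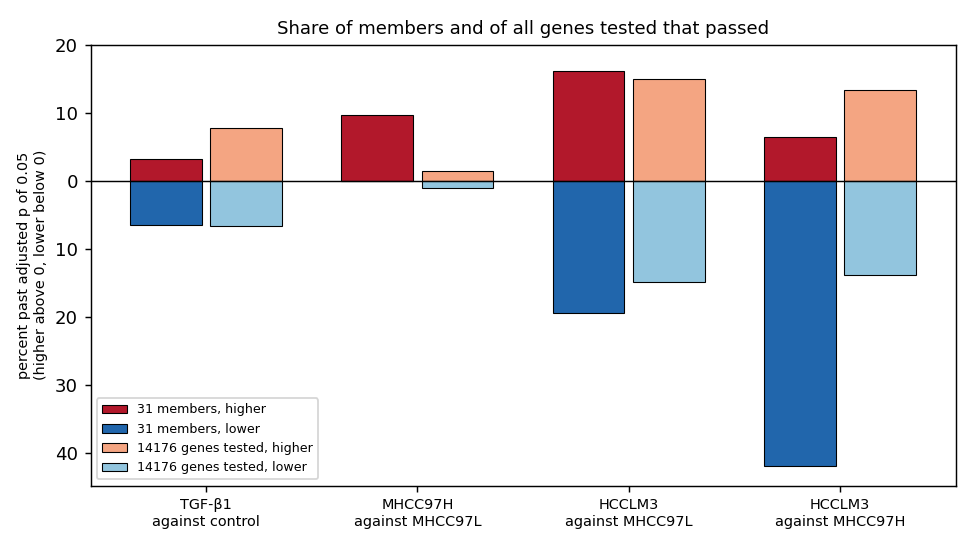
Share of the 31 genes and of all 14176 genes tested that were called higher or lower in each comparison, in percent. The bar for members lower in HCCLM3 than in MHCC97H stands at 41.9% beside 13.9% for all genes, while for TGF-β1 the members' bars do not exceed those of all genes.

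The stretches before the start of 4 genes that were lower in HCCLM3 than in MHCC97H are shown because they differ in how many matches they hold, and because SREBF2 holds the one match to the sterol element. The RefSeq windows on GRCh38.p14 are chr12:109573544-109573793 (plus strand), chr11:65111622-65111871 (plus), chr21:46228775-46229024 (minus) and chr22:41832855-41833104 (plus), written as above.
MVK: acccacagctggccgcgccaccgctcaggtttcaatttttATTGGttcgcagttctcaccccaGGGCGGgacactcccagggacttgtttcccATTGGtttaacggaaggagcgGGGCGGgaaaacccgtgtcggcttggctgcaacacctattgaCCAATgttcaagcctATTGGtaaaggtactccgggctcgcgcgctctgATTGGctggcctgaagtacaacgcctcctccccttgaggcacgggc
TM7SF2: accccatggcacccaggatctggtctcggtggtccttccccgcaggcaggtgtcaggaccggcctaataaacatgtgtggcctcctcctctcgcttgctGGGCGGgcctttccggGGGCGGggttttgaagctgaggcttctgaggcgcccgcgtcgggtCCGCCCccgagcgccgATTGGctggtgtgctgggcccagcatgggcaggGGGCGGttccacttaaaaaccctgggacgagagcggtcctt
LSS: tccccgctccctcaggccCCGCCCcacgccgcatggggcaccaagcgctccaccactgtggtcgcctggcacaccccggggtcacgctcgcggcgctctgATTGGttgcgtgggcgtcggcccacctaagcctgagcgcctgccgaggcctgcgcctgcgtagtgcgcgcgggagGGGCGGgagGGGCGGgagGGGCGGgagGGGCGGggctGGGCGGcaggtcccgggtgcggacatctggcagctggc
SREBF2: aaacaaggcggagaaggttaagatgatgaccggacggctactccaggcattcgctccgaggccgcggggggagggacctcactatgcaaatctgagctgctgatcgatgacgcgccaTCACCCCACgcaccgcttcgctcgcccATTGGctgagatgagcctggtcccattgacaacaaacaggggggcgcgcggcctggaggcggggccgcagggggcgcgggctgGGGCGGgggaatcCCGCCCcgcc
MVK held 5 CCAAT boxes and 2 GC boxes, in a window that lies in its gene model with 29 bases in an exon. TM7SF2 held 1 CCAAT box and 4 GC boxes, and LSS 1 and 6, with 27 and 50 bases of their windows in an exon. SREBF2, which encodes an SREBP itself, held the sterol element 133 bases before the start and a CCAAT box 106 bases before the start. Of its window, 26 bases lie in an exon.

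Windows were found for 27 of the 31 genes, 36 windows in all, and a gene counted as holding a motif if any of its windows did. ACACA thus counted for the CCAAT box through windows that are not shown. At least 1 CCAAT box stood in 19 of 27 (70.4%), against 37.0% of all 27305 genes in the table and 41.4% of the 10686 tested genes with a window. A GC box stood in 26 of 27 (96.3%), against 46.2% and 73.1%. The E-box stood in INSIG1, SC5D and SCAP (11.1%, against 7.73% and 11.1%), and the sterol element in SREBF2 (3.70%, against 1.09% and 1.17%). Of the 13 genes lower in HCCLM3 than in MHCC97H, 9 had a window and 7 of these held a CCAAT box. Of the 18 others with a window, 12 did.

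The wider lipid pathways were read from 4 lists, 69 of whose 74 genes were tested. In sterol handling, 3 of 19 rose and 2 fell after TGF-β1 (26.3% called, against 14.4% of all genes tested, median log2 0.00). The sterol exporters ABCG1 and ABCA1 rose by 1.06 (SE 0.188, edgeR adjusted p = 0.00858) and 0.32 (SE 0.077, 0.0277), with ABCG1 at a mean of 2.23 CPM in controls and 4.60 CPM with ligand. NR1H2, the oxysterol receptor LXRβ, rose by 0.35, and the sterol-binding proteins TMEM97 and OSBP had log2 changes of -0.45 and -0.26. In fatty acid oxidation and ketone synthesis, 1 of 14 genes tested rose and 1 fell (14.3% called, near the 14.4% of all genes, median 0.00). There PPARA, a receptor for fatty acids, fell from 29.1 ± 10.3 to 18.8 ± 4.28 CPM (SD, n = 3), a log2 change of -0.60 (edgeR adjusted p = 0.00568).

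Of 25 genes of fatty acid and glycerolipid synthesis, 2 rose and 2 fell (16.0%, near the 14.4% of all genes, median -0.05). SLC25A1, which exports mitochondrial citrate, and AGPAT2, an acyltransferase, had log2 changes of 0.28 and 0.44. The phosphatidate phosphatases LPIN1 and LPIN2 had -0.36 and -0.38. Of 11 isoprenoid branch genes, 0 passed in edgeR, DESeq2 or limma-voom, with 2 at an unadjusted p under 0.05 in edgeR (median 0.03). Of the genes named from these lists, PPARA alone kept its call without MHCC97L, and PPARA, ABCG1 and LPIN2 kept theirs without MHCC97H. DESeq2 did not call ABCA1, OSBP and LPIN1 (adjusted p = 0.0773, 0.0552 and 0.162), and scaling to library totals lost SLC25A1 and AGPAT2 (edgeR adjusted p = 0.0932 and 0.0541). SLC25A1 was also lost with upper quartile scaling (edgeR adjusted p = 0.0579), non-robust quasi-likelihood (edgeR, 0.0506) and limma-voom (0.053).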

How the data were processed

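The members and the other gene lists were chosen with earlier results of these data known. Each library came as a table that the authors deposited, of expected counts by gene and without normalization. The unit was read from the values, since 63.6% to 64.6% of a library's values were whole. Genome build hg38 and the tools Cuffdiff 1.3.0, Cufflinks 2.2.1 and TopHat2 2.1.1 stand in the submitters' processing notes, without roles. The counting tool and its strand setting are not given in the sources used here. Reads divided between similar or overlapping genes can therefore shift values, and 13 of 31 members had counts that were not whole, 8 overlap a gene that is in the files and 19 overlap an annotation on the other strand. Symbols, positions and exon lengths came from a gene name table and GENCODE 29, and 19574 of 22091 identifiers had a symbol.

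Counts were rounded to whole numbers (134 counts or fewer of any library's sum). Genes were filtered with filterByExpr, scaled by TMM (factors 0.972 to 1.029) and tested in R 4.3.3 with edgeR 4.0.16 (robust quasi-likelihood, cell line and treatment as terms, Benjamini-Hochberg adjustment at 0.05, 2 residual degrees of freedom). The labels pair the libraries by cell line, and deviations from the group means correlated within lines at 0.587, 0.456 and 0.728, so line stayed in the model. Within-line changes used log2 CPM with a prior count of 2 and 95% exact conditional binomial intervals, which cover counting error only. Alternatives used limma 3.58.1 and DESeq2 1.42.0. The fits were tested on simulated counts. Members were named by passing the threshold for TGF-β1 or having the largest change of a role, and those described between lines were chosen after their values were seen. Of each other list, up to 4 called genes a direction were named. Marker lists of endothelium (13.2 to 40.8 CPM summed in controls, 9.59 to 35.1 CPM after TGF-β1) and leukocytes (7.40 to 17.1 and 8.85 to 21.9 CPM) were also read. A few of the genes tested are not reported here.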

Additional observations from a re-analysis of the deposited data

Results flagged for a closer look

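For 6 members the counting interval lay above 0 in 1 or more lines and below 0 in another. The values are log2 changes after TGF-β1, and since each rests on a single pair of libraries, these opposite directions were not tested line by line. ACAT2 stood at 0.16 in MHCC97L, 0.15 in MHCC97H and -0.37 in HCCLM3. PMVK stood at 0.22, 0.26 and -0.14 in the same order. SCAP stood at 0.15, 0.33 and -0.25, and SREBF1 at 0.29 in MHCC97H and -0.29 in HCCLM3. FASN was at 0.05 in MHCC97H, against -0.24 in MHCC97L and -0.37 in HCCLM3. FADS1 was at 0.11 in MHCC97L and 0.13 in HCCLM3, against -0.19 in MHCC97H. The response of HCCLM3 against that shared by the MHCC97 lines was tested after these values were seen, with 1 pair of HCCLM3 libraries and a spread taken from the MHCC97 lines alone. SCAP had a difference of -0.50 and an edgeR adjusted p of 0.0439, which did not hold with DESeq2 size factors (0.104), upper quartile scaling (0.0535), library totals (0.0773) or no count filter (0.273).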

How the results depend on the processing

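No called change of a gene named here changed sign under any alternative run (477 values), while 21 of 912 values of genes that were not called did. For TGF-β1 against control, the 3 member calls ranged from 1 (without MHCC97L or without MHCC97H) to 11 (without HCCLM3) when a line was left out. Of all genes, 2047 were called, 611 without MHCC97L, 981 without MHCC97H and 3971 without HCCLM3, and 1423 in DESeq2. Without the pairing by line (no replicate block) 0 members, 0 genes of the other lipid lists and 10 of all genes were called, with ACACA, ACLY and ELOVL6 at edgeR adjusted p of 0.227, 0.286 and 0.630. The 11 calls of the other lipid lists ranged from 2 (without MHCC97L) and 4 (without MHCC97H) to 20 (without HCCLM3). For MHCC97H against MHCC97L the 3 member calls became 6 in DESeq2 and 16 without HCCLM3, with no matching count over all genes. For the response of HCCLM3 against the MHCC97 lines, an added comparison, the 1 call became 0 with DESeq2 size factors, upper quartile scaling, library totals or no count filter, with 9, 9, 12 and 7 members at an unadjusted p under 0.05. Member calls for HCCLM3 stayed between 10 and 13 against MHCC97L and between 14 and 16 against MHCC97H. The share of all TGF-β1 calls that were higher was 53.9%, and 37.1% with library totals. Within lines, library totals moved 7 of 93 values outside their counting intervals. A fit without a line has 1 residual degree of freedom, and each within-line value rests on 1 library per condition.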
